A study of Rattus norvegicus with 9 samples.

Results

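Aif1 (ENSRNOG00000000853) and Ifi27 (ENSRNOG00000009263) are 2 of the 29516 Ensembl gene identifiers counted in the cerebral cortex of ageing rats. They were chosen on their difference between 12 and 28 months in these same libraries, so the values that chose them are described here without a test. All animals were male BN rats (BN/SsNOlaHSD) fed without restriction, and age was the sole labelled difference between the groups. Total RNA of the cortex was pooled from 2 rats per library, depleted of ribosomal RNA and sequenced on the SOLiD platform, with 3 files each at 6, 12 and 28 months. The second 6-month file and the third 12-month file hold the same count for every identifier (0 of 29516 differ), so there are 8 independent libraries, and the labels do not settle the age of the shared library. The comparisons were therefore made without it, with 2 libraries at 6 months, 2 at 12 months and 3 at 28 months, and its own values are given separately.

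Aif1, also known as Iba1, encodes a small calcium-binding protein that bundles actin. In the brain it is made by microglia, the resident macrophages, and antibodies to it are a standard stain for these cells. Ifi27 encodes a small hydrophobic protein of the mitochondrial membrane whose transcription is switched on by type I interferon. Interferon acts through receptors at the cell surface, which activate STAT and IRF factors that bind short response elements in the promoters of induced genes. Microglia also carry the genes of antigen presentation by major histocompatibility complex (MHC) class II, so Aif1 is often read beside those genes. In whole cortex RNA, fewer cells of a type and less RNA per cell cannot be told apart.

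The promoter of Ifi27 is shown because it carries matches to the interferon response element; that of Aif1 was not analysed here. The sequence is that of RefSeq (build GRCr8, chr6:128355062-128355361, plus strand), from 250 bases before the annotated transcription start to 50 after it. Capitals mark the matches to GAAANNGAA, a shortened form of the interferon-stimulated response element.
Ifi27: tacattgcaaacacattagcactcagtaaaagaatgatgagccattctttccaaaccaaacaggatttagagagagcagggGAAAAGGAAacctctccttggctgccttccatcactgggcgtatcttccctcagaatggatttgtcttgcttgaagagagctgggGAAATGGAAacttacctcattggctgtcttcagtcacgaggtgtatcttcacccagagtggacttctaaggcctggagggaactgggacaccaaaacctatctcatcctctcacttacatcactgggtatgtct

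Both matches lie on the plus strand and they do not overlap. The first spans bases -169 to -161 and the second bases -84 to -76, counted from the transcription start at +1. Searched on both strands, at least 1 match was present in 9.71% of the 33469 RefSeq promoters of this length, and 2 or more in 0.759%. The core GAGGAA of PU.1, a factor of microglia and macrophages, had 0 matches in the Ifi27 window and at least 1 in 27.6% of all promoters. The gamma-activated site TTCNNNGAA, bound by STAT factors, had 0 matches there and at least 1 in 8.87% of all promoters. Of the other named genes in the RefSeq table, Fcgr3a had 1 match to the shortened interferon element, and RT1-Da, RT1-Db1, RT1-Bb, RT1-Ba, Cd74, Alb and Gfap had 0. The PU.1 core had 1 match in each of Fcgr3a, RT1-Bb and Cd74, and 0 in RT1-Ba, RT1-Da, RT1-Db1, Alb and Gfap. The gamma-activated site had 0 matches in all of these genes. A match is a run of letters, and binding was not measured. In the RefSeq gene order Ifi27 is followed directly by its relative Ifi27l2b, and reads of such relatives may have been split or lost in the counting. Aif1 lies between Ncr3 and Prrc2a, with RT1-Da, the nearest of the class II genes named here, 57 protein-coding genes further on.

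Both genes were read at low depth. Gene totals ran from 6513376 to 9196951 reads over the libraries, and 1 identifier (ENSRNOG00000043866) took from 44.0 to 52.4% of them. Aif1 had from 18 to 64 reads per library and Ifi27 from 36 to 100, so both passed the minimum of 5 reads in every library. Levels are given as normalized read counts (CPM, the reads of a gene brought to 1 common library size with TMM scaling over the 8 libraries). Since CPM takes no account of gene length, the level of Aif1 is not compared with that of Ifi27. Intervals on single libraries are exact 95% binomial intervals and cover counting error only.

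At 6 months Aif1 had 5.66 CPM (52 reads) in sample 1 and 5.16 CPM (45 reads) in sample 3. At 12 months it had 8.97 CPM (63 reads) in sample 1 and 8.81 CPM (64 reads) in sample 2. At 28 months the values of Aif1 were 3.47 CPM (28 reads) in sample 1, 2.49 CPM (18 reads) in sample 2 and 2.72 CPM (18 reads) in sample 3. Without the shared library the ages do not overlap for this gene, with the 12-month libraries highest and the 28-month libraries lowest. If the shared library (4.88 CPM) is placed at 12 months, the 6-month and 12-month values overlap. The share of all genes that separate in this way was not counted, and the 12-month and 28-month libraries served to choose the gene. The group means were 5.41 ± 0.355 CPM (SD, n = 2) at 6 months, 8.89 ± 0.118 (SD, n = 2) at 12 months and 2.89 ± 0.514 (SD, n = 3) at 28 months. At each age the spread between libraries was smaller than the counting error that so few reads carry. For Aif1 the coefficient of variation was 6.55, 1.33 and 17.8% at 6, 12 and 28 months, where counting alone gives 14.4, 12.5 and 21.7%.

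At 6 months Ifi27 had 5.44 CPM (50 reads) in sample 1 and 4.70 CPM (41 reads) in sample 3. At 12 months it had 14.2 CPM (100 reads) in sample 1 and 12.2 CPM (89 reads) in sample 2. The 28-month values were 4.58 CPM (37 reads) in sample 1, 5.94 CPM (43 reads) in sample 2 and 5.43 CPM (36 reads) in sample 3. The 12-month libraries stand above all others, and the 6-month and 28-month libraries overlap. How many of all genes have their 12-month libraries highest was not counted. The means of Ifi27 were 5.07 ± 0.525 CPM (SD, n = 2) at 6 months, 13.2 ± 1.41 (SD, n = 2) at 12 months and 5.32 ± 0.684 (SD, n = 3) at 28 months. Its coefficient of variation between libraries was 10.3, 10.7 and 12.9% at 6, 12 and 28 months, against 14.8, 10.3 and 16.1% from counting alone.

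By its values alone, the library deposited under both ages did not place the pair alike. Aif1 had 4.88 CPM in it (35 reads, interval 3.40 to 6.79), and this interval held both 6-month values and neither 12-month value. Ifi27 had 8.23 CPM (59 reads, interval 6.27 to 10.6), which lay above both 6-month values and below both 12-month values, with neither pair inside the interval. The other libraries carry counting error too. The Ifi27 interval overlapped those of both 6-month libraries (4.04 to 7.18 and 3.37 to 6.38) and of 12 months sample 2 (9.83 to 15.1). For Aif1 the interval also reached that of 12 months sample 2 (6.78 to 11.2). The difference in placement was not tested. The summed level of the 5 MHC class II genes in the same library was 106 CPM, within the 104 to 161 CPM of the 12-month libraries and above the 14.7 to 18.5 CPM of the 6-month libraries. Cd74, the invariant chain of MHC class II, had 23.3 CPM there, against 5.12 and 5.05 CPM in the 6-month libraries and 28.3 and 35.9 CPM in the 12-month libraries.

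**Figure D1:**
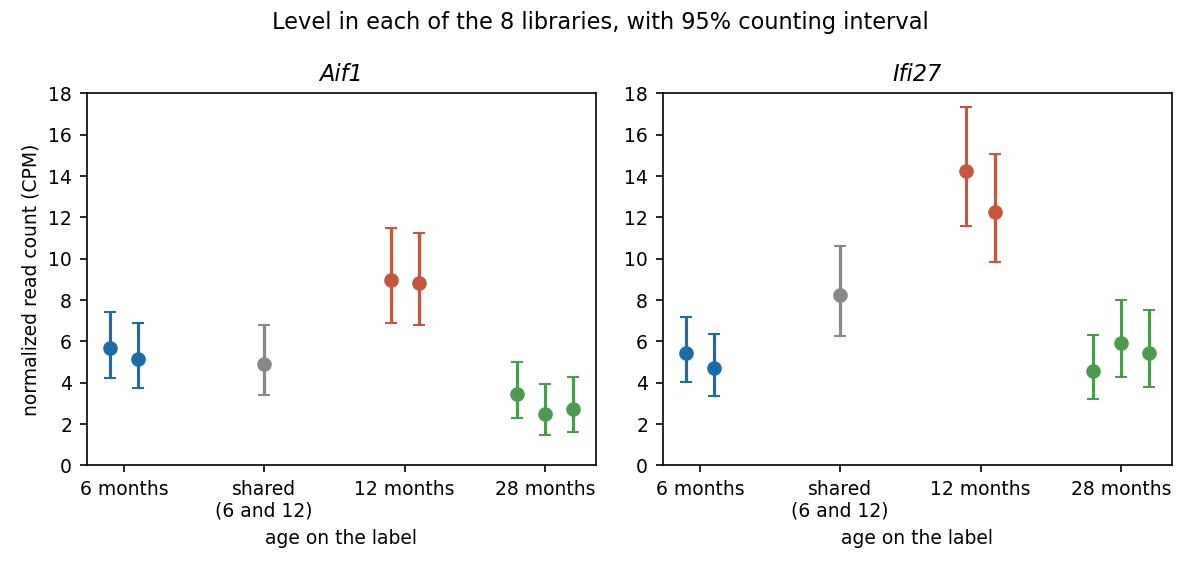
Normalized read count (CPM, linear axis from 0) of Aif1 and Ifi27 in each of the 8 libraries, grouped by the age on the label, with the library deposited under both 6 and 12 months in grey; points are libraries and bars their exact 95% counting intervals. Aif1 lies at 8.81 and 8.97 CPM in the 12-month libraries and at most at 3.47 CPM at 28 months, while the 28-month values of Ifi27 (4.58 to 5.94 CPM) overlap those at 6 months (4.70 and 5.44 CPM).

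From 6 to 12 months Ifi27 rose 2.59-fold, and the difference of Aif1, 1.63-fold, did not pass the test. The fit compared 2 libraries with 2 by edgeR's quasi-likelihood test over 15966 genes, of which 1.20% were called at a Benjamini-Hochberg FDR under 0.05 and 0.313% were called as higher at 12 months. The log2FC, which is above 0 where the older age is higher, was 1.37 for Ifi27 (standard error, SE, 0.23, 95% interval 0.86 to 1.88, FDR 0.0238 in edgeR). For Aif1 it was 0.71 (SE 0.23, 95% interval 0.19 to 1.23, FDR 0.238 in edgeR). The intervals are not adjusted for the number of genes, which is why that of Aif1 lies above 0. This comparison uses the same 12-month libraries on which the genes were selected, so it is not independent of that choice. The call of Ifi27 depended on the shared library. Its log2FC was 1.11 (FDR 0.389) with that library at 6 months, 1.17 (FDR 0.137) with it at 12 months and 0.93 (FDR 0.997) with a copy at each age (all edgeR).

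Between 6 and 28 months neither gene was called, where 0.206% of the 16042 genes tested were. Aif1 had a log2FC of -0.90 (SE 0.29, 95% interval -1.54 to -0.25, edgeR FDR 0.585), and all 3 libraries at 28 months were below both at 6 months. The share of all genes with such a separation was not counted. Ifi27 had a log2FC of 0.06 (SE 0.26, edgeR FDR 0.981). Its 95% interval ran from -0.52 to 0.65 on the log2 scale. The sign of this small value turned with single libraries: it was -0.035 without 6 months sample 3 and -0.018 without 28 months sample 2. The comparison uses the 28-month libraries that also entered the choice of the genes.

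Between 12 and 28 months, the comparison that chose them, Aif1 had a log2FC of -1.60 (SE 0.27) and Ifi27 one of -1.31 (SE 0.23). These correspond to levels at 28 months of 0.330 and 0.404 times those at 12 months. Of the 15840 genes in this fit, 0.120% were called, and nothing is read from that share, since it is the comparison used for the choice. Over all genes tested the median log2FC was 0.01 and 9 in 10 values lay between -0.83 and 0.84. The place of Aif1 and Ifi27 outside this range follows from the choice, and nothing is read from it either.

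**Figure D2:**
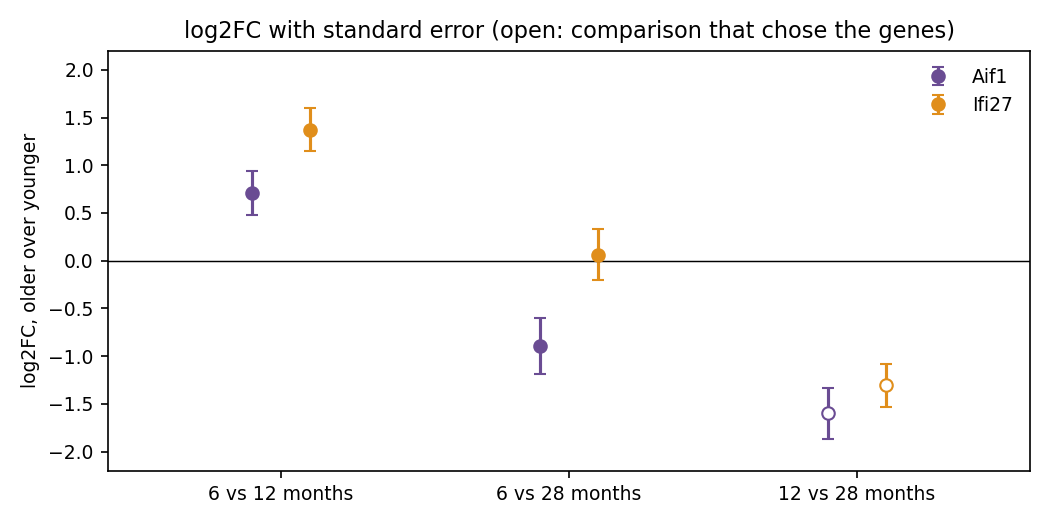
Log2FC of Aif1 and Ifi27 (older over younger age) in the 3 comparisons, without the shared library, with bars of 1 SE; open points mark the comparison that chose the genes. Ifi27 is near 0 (0.06) between 6 and 28 months and Aif1 is at -0.90.

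The reads of Ifi27 for each read of Aif1 within a library do not depend on how libraries were scaled. This ratio was looked at after the values were seen and was not tested. It was 0.962 and 0.911 in the 6-month libraries, 1.59 and 1.39 in the 12-month libraries, and 1.32, 2.39 and 2.00 at 28 months. The shared library had 1.69. The 6-month libraries thus had the lowest ratios, and the 12-month and 28-month libraries overlapped. The counting error of these ratios was not computed, and at 28 months they rest on 18 to 28 reads of Aif1. How many other gene pairs separate in this way was not counted.

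The other microglial, interferon and antigen presentation genes could be followed as far as identifiers have names. The published tables pair 123 identifiers with a name, among them 2 of 18 listed microglial and macrophage markers (Aif1 and Fcgr3a) and 1 of 22 listed interferon-induced genes (Ifi27). The microglial identity of the Aif1 signal could therefore be set against 1 other marker only. Fcgr3a, a receptor for the constant part of antibodies, had 1.96 and 0.573 CPM at 6 months, 4.27 and 1.38 CPM at 12 months, and from 0.754 to 1.36 CPM at 28 months. Its groups overlap, and it had from 5 to 30 reads per library. The log2FC of Fcgr3a was 1.12 from 6 to 12 months (SE 0.68, edgeR FDR 0.518) and -0.35 from 6 to 28 months (SE 0.62, edgeR FDR 0.951).

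The MHC class II genes had larger log2FC from 6 to 12 months than either of the pair. RT1-Da, RT1-Db1, RT1-Bb and RT1-Ba, the chains that present peptides, and Cd74 were called as higher at 12 than at 6 months in 5 of 5 cases, with log2FC from 2.65 to 3.31. Complement component 4, gene 2, which tags targets for uptake, was also higher (log2FC 2.53, SE 0.43, edgeR FDR 0.0267). Together with Fcgr3a, 6 of these 7 other immune identifiers were called as higher at 12 months, against 0.313% of all genes tested, with a median log2FC of 2.91 against -0.01 over all genes tested. These calls depended on the age given to the shared library. With a copy at each age (FDR 0.997 for each of the 6 in edgeR) or with it at 6 months only (FDR from 0.581 to 0.676) none of the 6 was called, and their log2FC lay between 1.23 and 1.80, while with it at 12 months only all 6 were called. Complement component 4, gene 2, was also not called without a filter on low counts (edgeR FDR 0.0593). The 7 were taken from the published tables, which were drawn up on the same libraries, and they are not independent evidence of a direction. Between 6 and 28 months 0 of the 7 were called by edgeR (5 had an unadjusted p under 0.05), against 0.206% of all genes. Their log2FC had a median of 0.88 and lay between -0.35 and 1.37. Of these, 6 had a log2FC above 0, whereas Aif1 had -0.90 and Ifi27 0.06. The differences between these genes and the pair were not tested.

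Markers of other cells and of blood were followed in the same libraries. Those that could be matched are named in published tables of differences between these libraries. Their differences are therefore not independent evidence. Of 4 listed blood and plasma genes 3 could be matched. Alb, serum albumin, and Apob, a lipoprotein of plasma, were higher at 12 than at 6 months (log2FC 3.88 and 4.05, edgeR FDR 0.0142 and 0.0324). Both were at 2 or 3 reads per library at 6 months, and neither was called with the shared library at 6 months or at both ages (edgeR FDR from 0.689 to 0.997). Apob was also not called without 12 months sample 2 (log2FC 3.17, edgeR FDR 0.109) or without a filter on low counts (edgeR FDR 0.0751). Hemoglobin subunit beta-2 had a log2FC of 0.62 (SE 0.24, edgeR FDR 0.306). This value moved with single libraries: it was 0.28 without 12 months sample 1 and 0.89 without 12 months sample 2. With the shared library at 6 months it was 0.08, and with that library at 12 months 0.86. The summed level of the 3 was 23.5 to 31.9 CPM at 6 months, 46.2 to 55.8 at 12 months and 20.2 to 29.7 at 28 months, and 75.5 in the shared library. Gfap, a filament protein of astrocytes and the 1 matched of 4 astrocyte markers, had 72.4 to 89.2 CPM at 6 months, 145 to 155 at 12 months and 52.5 to 76.9 at 28 months, and was higher at 12 than at 6 months (log2FC 0.88, SE 0.16, edgeR FDR 0.0328). Gfap was not called in any placement of the shared library (edgeR FDR from 0.0635 to 0.997), nor without a filter on low counts (edgeR FDR 0.0731). In 1 fit over the 3 ages neither Gfap (edgeR FDR 0.083) nor Apob (edgeR FDR 0.06) was called. None of the 5 neuronal, 4 oligodendrocyte or 3 T cell markers could be matched to an identifier. The part of blood, plasma or astrocyte RNA in the levels of Aif1 and Ifi27 was not tested.

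**Figure D3:**
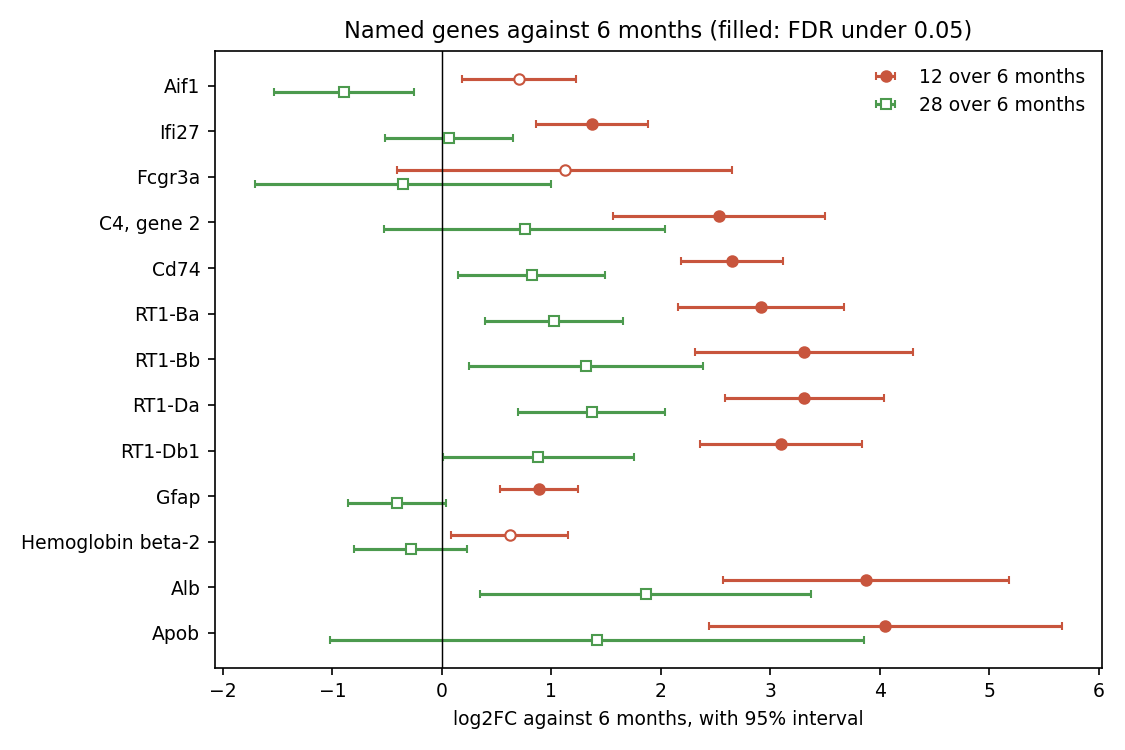
Log2FC of Aif1, Ifi27 and the matched immune, astrocyte and blood genes at 12 months (circles) and 28 months (squares) against 6 months, with 95% intervals of the quasi-likelihood fit; filled symbols have an FDR under 0.05. Ifi27 and 6 of the 7 other immune identifiers are filled at 12 months and none of these is at 28 months, where Aif1 lies at -0.90.

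The genes whose profile was most like that of each member were sought among the other 10967 identifiers with a mean of at least 20 reads. Likeness was the root-mean-square difference of log2(CPM + 0.5), centred on each gene's mean, over the 8 libraries. Nearest to Aif1 was ENSRNOG00000004319, which has no name in the tables, at a difference of 0.15. It had 2.83 and 2.98 CPM at 6 months, 4.27 and 4.13 CPM at 12 months, 1.38 to 1.98 CPM at 28 months and 2.37 CPM in the shared library. The nearest named identifiers were RGD1306682 (difference 0.32, rank 16), F1LTG5_RAT (0.33, rank 17) and Qdpr, which recycles tetrahydrobiopterin (0.33, rank 19).

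Nearest to Ifi27 was another identifier without a name, ENSRNOG00000012062, at a difference of 0.19. Among named identifiers RGD1306682 ranked 2 (difference 0.21), F1LTG5_RAT ranked 12 (0.26) and the identifier that the tables name Tf, but describe as another gene, ranked 44 (0.30). RGD1306682 had 11.0 CPM in both 6-month libraries, 19.9 and 19.5 CPM at 12 months, 9.05 to 10.4 CPM at 28 months and 16.5 CPM in the shared library. Ifi27 ranked 91 among the genes most like Aif1, and Aif1 ranked 353 among those most like Ifi27, at a difference of 0.40. The names come from tables of differences between 12 and 28 months in these libraries, so the likeness of the named neighbours is not independent of that choice. Aif1 and Ifi27 were chosen on the same difference, so their likeness to each other is not independent of it either.

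**Figure D4:**
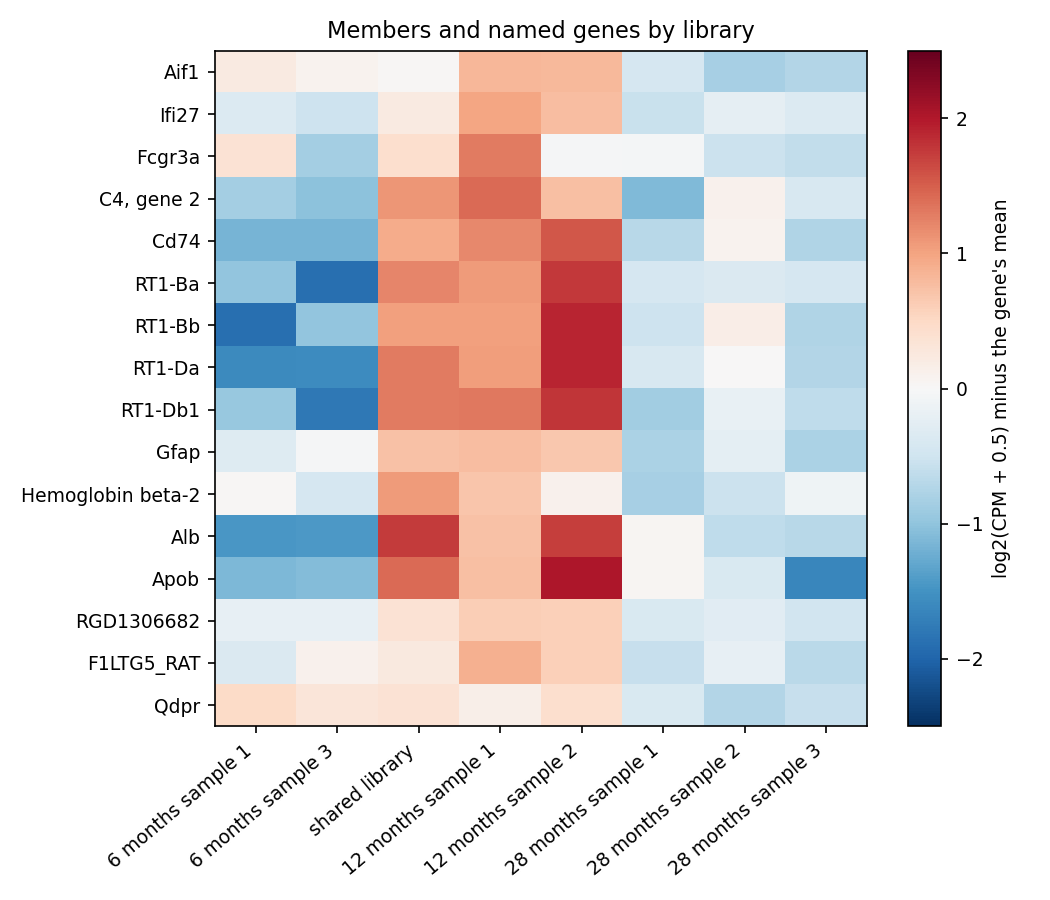
Colour shows log2(CPM + 0.5) minus the gene's mean over the 8 libraries (red above, blue below the mean). Rows are Aif1, Ifi27, the matched immune, astrocyte and blood genes, and the neighbours RGD1306682, F1LTG5_RAT and Qdpr. Tf is not shown. Aif1 is near its mean in the shared library (0.02), where Cd74 is at 0.93 and RT1-Da at 1.30, and the 28-month libraries of Aif1 lie between -0.83 and -0.42.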

How the data were processed

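The authors converted SOLiD colour reads, mapped them with Bowtie to the Ensembl rat genome (rn4 per the labels), assigned them to genes with HTSeq and deposited the raw counts, not normalized. Program versions and the strand setting are not given in the sources used here, so overlapping or antisense genes cannot be separated. The 5 lines of uncounted reads at the end of each file were left out; reads on no gene made up 47.5 to 60.0% of all reads on genes, on several genes or on none. Groups follow the age label. Each library pools 2 rats, and p-values refer to differences between such pools. The quasi-likelihood test draws each gene's variance towards that of other genes, so its p-values do not measure that gene's spread alone.

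Each pair of ages was fitted over every gene that reached 5 reads in 1 or more of the compared libraries, with TMM and the quasi-likelihood test of edgeR 4.0.16 (R 4.3.3) and Benjamini-Hochberg adjustment. The shared library was left out, since 1 library in both arms is a replicate of neither. Alternatives were RLE size factors, 2 other filters, the exact test, DESeq2 1.42.0, 1 fit over the 3 ages, 3 placements of the shared library, library sizes without the most abundant identifier, and leaving out each library; for named genes other than the members these were added after seeing the data. The fits were checked on simulated counts. Names came from the published supplementary tables, and RefSeq's gene table, which lists 0 Ensembl identifiers, gives the accession of ENSRNOG00000009263 the symbol Ifi27. The named genes are the members, the matched list genes, the other immune identifiers with a published name, and the nearest profiles. The members and lists were chosen with earlier results of these data known.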

Additional observations from a re-analysis of the deposited data

How the results depend on the processing

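Direction held under all 14 alternatives for both genes between 6 and 12 months, and under all 13 for Aif1 between 6 and 28 months. Between 12 and 28 months it also held under all 13 for both genes. That comparison chose the genes, so its held direction is no support. Aif1 was called in none of its alternatives, with FDR from 0.198 to 0.997 between 6 and 12 months and from 0.359 to 1 between 6 and 28 months. Ifi27 stayed called between 6 and 12 months in 10 of 14, with FDR from 0.000145 to 0.997. The call was lost without a filter on low counts (log2FC 1.36, FDR 0.0576), and with the shared library at 6 months (1.11), at 12 months (1.17) or as labelled (0.93). Between 6 and 28 months the log2FC of Ifi27 turned to -0.19 with the shared library kept at 6 months, and lay between -0.035 and 0.180 with each library left out. Between 12 and 28 months it became -1.11 for Ifi27 and -1.37 for Aif1 with the shared library at 12 months. The cause was not tested.

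The number of called genes moved more. Between 6 and 12 months it was 191, and became 112 without a filter, 452 by the exact test, 19 or 109 with the shared library at 6 or 12 months, and 0 with both copies (quasi-likelihood test, 485 at an unadjusted p under 0.05). Between 6 and 28 months it was 33, with 199 without a filter, 131 by the exact test, 72 by DESeq2 and 18 with the shared library. Between 12 and 28 months it was 19, with 139, 117, 82 and 9 in the same order. Leaving out 1 library gave 360 to 889, 0 to 137 and 0 to 142 calls in these comparisons. The quasi-likelihood counts of 0 arose on leaving out 28 months sample 3, in both comparisons with that age (unadjusted p under 0.05 in 549 and 870 genes), or 12 months sample 2 (918 genes). Where 1 library of an age was left, it was assumed to vary like the other age. These genes had 18 to 100 reads per library. At their mean reads in each age group, counting alone gives a coefficient of variation of 10.3 to 21.7%. No paired analysis was possible because the sample numbers do not pair the libraries of different ages.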
